A study of Rattus norvegicus with 6 samples.

Results

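Lipid uptake, binding and droplet storage were followed through 10 genes: Cd36, Fabp3, Fabp4, Fabp5, Lpl, Plin2, Plin5, Angptl4, Pnpla2 and Dgat2. The genes were taken by name from a table of read counts for 22250 rat genes, and 9 of the 10 were found under their own name. No gene of the table was named Cd36, and a row of that gene family is described apart from the 9.

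The hearts came from Sprague-Dawley rats of WT genotype. The study compared 3 young donors aged 10 weeks with 3 aged donors of 1 year (young animals 3, 13 and 15, and aged animals 3, 4 and 7, where the number 3 names different rats). According to the study's methods the animals were male, and each donor heart was held in cold University of Wisconsin solution before heterotopic transplantation, a graft placed beside the recipient's own heart, into a young rat. Left ventricular (LV) myocardium was taken on postoperative day 1, so every heart had been stored and transplanted, and donor age is the contrast the labels give. The grafts were perfused by the recipient's blood, so host blood cells can be among the cells sampled. Polyadenylated RNA was sequenced to between 21457509 and 24560869 reads on genes per heart.

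The heart draws most of its fuel from long-chain fatty acids. Lipoprotein lipase, encoded by Lpl, frees them from circulating lipoproteins at the capillary wall, angiopoietin-like 4 (Angptl4) inhibits that enzyme, and CD36 carries fatty acids across the cell membrane. Inside the cell fatty acid binding proteins (Fabp3, Fabp4 and Fabp5) carry them through the cytosol, Dgat2 completes triglyceride synthesis, perilipins (Plin2 and Plin5) coat the lipid droplet, and adipose triglyceride lipase (Pnpla2) opens the breakdown of stored triglyceride. Many of these genes are textbook targets of the peroxisome proliferator-activated receptors (PPARs), and Angptl4 and Plin2 are also known to respond to low oxygen.

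Promoter sequence from RefSeq (rat build GRCr8), spanning 250 bases before to 50 after an annotated start, could be matched for 6 of the 10 genes in 7 windows. The windows of Angptl4, Plin2, Fabp3 and Plin5 are printed because Angptl4 and Plin2 were higher in aged hearts while Fabp3 and Plin5 were lower. Capitals mark letters that match 1 of 3 motifs searched on both strands: ACGTG (the core bound by hypoxia-inducible factors), AGGTCA (the core bound by nuclear receptors, PPARs among them) and TATAAA (the TATA box). The letters stood as follows, 5′ to 3′ on the strand of the gene.

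Angptl4 (chr7:15258632-15258931, minus strand): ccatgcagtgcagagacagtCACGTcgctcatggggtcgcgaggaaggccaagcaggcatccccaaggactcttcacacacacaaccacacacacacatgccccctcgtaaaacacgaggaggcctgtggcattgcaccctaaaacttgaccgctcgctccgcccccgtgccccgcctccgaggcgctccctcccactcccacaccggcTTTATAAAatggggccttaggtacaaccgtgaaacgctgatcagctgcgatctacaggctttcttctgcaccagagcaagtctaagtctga
Plin2 (chr5:106228969-106229268, minus strand): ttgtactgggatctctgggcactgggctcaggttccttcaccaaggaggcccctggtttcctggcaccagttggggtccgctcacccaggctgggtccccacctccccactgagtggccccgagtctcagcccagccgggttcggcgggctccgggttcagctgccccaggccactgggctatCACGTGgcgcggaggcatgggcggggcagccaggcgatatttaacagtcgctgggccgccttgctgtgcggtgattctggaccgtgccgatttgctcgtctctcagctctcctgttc
Fabp3 (chr5:147935875-147936174, plus strand): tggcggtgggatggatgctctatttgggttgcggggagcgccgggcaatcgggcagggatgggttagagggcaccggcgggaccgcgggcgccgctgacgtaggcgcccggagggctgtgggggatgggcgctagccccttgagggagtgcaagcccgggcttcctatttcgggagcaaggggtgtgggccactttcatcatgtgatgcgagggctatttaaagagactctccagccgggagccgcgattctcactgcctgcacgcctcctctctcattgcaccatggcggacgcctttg
Plin5 (chr9:1033235-1033534, minus strand): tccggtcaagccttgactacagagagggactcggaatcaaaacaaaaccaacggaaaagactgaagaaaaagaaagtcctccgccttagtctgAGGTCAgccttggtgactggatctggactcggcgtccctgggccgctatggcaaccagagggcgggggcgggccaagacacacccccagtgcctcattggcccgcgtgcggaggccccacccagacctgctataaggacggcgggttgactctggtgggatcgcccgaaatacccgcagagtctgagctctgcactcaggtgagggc

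The printed Plin2 window, 1 of 2 that RefSeq gives for that gene, held ACGTG on both strands, as CACGTG, beginning 67 bases before the start. The second Plin2 window (chr5:106228488-106228787) held none of the motifs. The Angptl4 window held it on the opposite strand, 230 bases before the start, and TATAAA 39 bases before it. TATAAA is also read there on the opposite strand, in letters that overlap those. The Plin5 window held AGGTCA 157 bases before the start, and the Fabp3 window matched none of the 3. ACGTG was present in 3 of the 7 windows and in 19.3% of 33469 rat promoters of the same length, AGGTCA in 1 of 7 and in 16.2%, and TATAAA in 2 of 7 and in 14.2%. The full PPAR element, searched as AGGTCANAGGTCA, was in 0 of the 7 windows and in 0.0538% of all promoters. These matches are letters in a window, and binding was not measured.

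The libraries differed in ways that touch every gene below. Young animal 15 stood apart from young animals 3 and 13. The fits of the genes and of the lists of lipid and PPAR genes below are given with and without it. Among marker lists this holds for those of cardiomyocytes, neutrophils, macrophages and T cells. Summed CPM (counts per 1000000 reads, with library sizes adjusted by edgeR's TMM method) of 12 cardiomyocyte markers was 105563 and 116242 in young animals 3 and 13, 14730.4 in young animal 15, and 627 to 8957 in aged hearts. Myh6, the main myosin heavy chain of rat ventricle, was at 26873 and 29955 CPM in young animals 3 and 13, at 1085 in young animal 15 and at 13.6 in aged animal 3, the lowest of the 6 libraries for this defining marker of the labelled tissue. Actc1 (cardiac actin) and Atp2a2 (the calcium pump) were also lower in every aged heart. Of the 12 markers 10 had every aged heart below every young one, and Tnni3 and Mb overlapped. Reads of the mitochondrial genome made up 21.7% in young animals 3 and 13, 11.9% in young animal 15 and 6.57% to 10.3% in aged hearts. In bulk tissue, fewer cells of a type and less RNA per cell cannot be told apart.

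A gene is described as past the limits when it met the limits of the study, a fold change over 1.5 or under 0.67 with an unadjusted p under 0.05 in edgeR's quasi-likelihood test. Of the 9 genes, 4 were past the limits and higher in aged hearts (Angptl4, Plin2, Dgat2 and Fabp5), against 13.2% of all 13784 genes tested. A further 3 were past them and lower (Fabp3, Plin5 and Lpl), against 19.0%. That is 7 of 9 against 32.2% in either direction. The genes were chosen with earlier results of these data known, so shares set beside those of all genes are descriptions and not tests. Fabp4 and Pnpla2 were not past the limits. The median log2 difference was -1.08 among the 9 and 0.016 among all genes, and its median size was 2.09 against 0.578. After Benjamini-Hochberg adjustment over all genes, 0 of the 9 genes had p under 0.05 and 7 had an unadjusted p under 0.05. The background for the adjusted call was 0.0%, with a smallest adjusted p of 0.0916 for any gene by edgeR. By DESeq2 7 of the 9 genes had an adjusted p under 0.05, where 26.1% of genes did, and by limma-voom with quality weights 9 did, where 61.1% of genes did. By limma-voom 4 of the 9 were past the limits and higher, against 26.8% of genes, and 5 were past them and lower, against 27.7%.

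Without young animal 15, 4 genes were higher, against 26.9% of genes, and 5 were lower, against 24.2%. In that fit all 9 had an adjusted p under 0.05 by edgeR, where 48.3% of genes did. It rests on 2 young hearts, because the young heart that stood apart is dropped. Leaving out any other single heart gave 0 of the 9 and 0 of all genes. Values of the groups did not overlap for 6 of the 9 genes, against 41.6% of all genes. In 4 of the 6 every aged heart was above every young one (21.0% of all genes), and in 2 every aged heart was below (20.6%). With 3 hearts a group, an exact permutation test cannot give a two-sided p under 0.1.

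**Figure D1:**
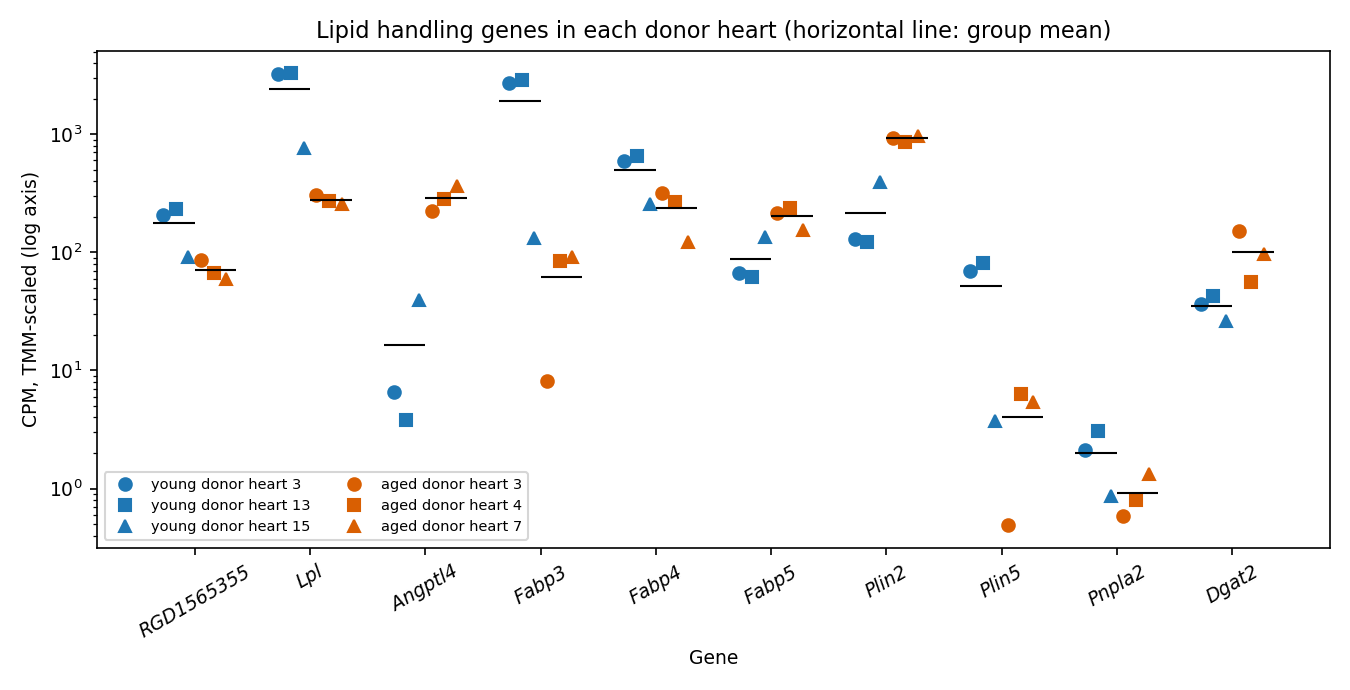
CPM on a log axis of the 9 genes and of the CD36-like row RGD1565355 in each of 3 young (blue) and 3 aged (orange) donor hearts, with group means as black lines. Lpl and Fabp3 of young animals 3 and 13 lie at 2710.2 CPM or more, Plin2 of every aged heart lies at 865 CPM or more, and young animal 15 lies nearer to the aged hearts than the other young ones do in every gene but Dgat2.

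Lpl, on chromosome 16 (22537056 to 22561496, minus strand, Rnor_6.0), encodes the lipase that releases fatty acids from lipoproteins. Its level was 3239.7, 3270.3 and 758 CPM in young animals 3, 13 and 15, and 304, 272 and 256 CPM in aged animals 3, 4 and 7. Every aged heart was below every young heart, and young animal 15 lay between the other young hearts and the aged ones. The log2 difference was -3.13 (SE 0.627, n = 3 per group), an 8.75-fold lower level in aged hearts, with adjusted p = 0.0916 by edgeR. Without young animal 15 it was -3.52 (SE 0.248), with an adjusted p of 0.00104 by edgeR.

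Angptl4, on chromosome 7 (18627808 to 18634079, minus strand), encodes the secreted inhibitor of lipoprotein lipase. It had 108, 60 and 947 reads in young animals 3, 13 and 15, and 6761, 7413 and 9489 reads in aged animals 3, 4 and 7. As CPM these were 6.53, 3.81 and 39.1 in young hearts against 222, 281 and 364 in aged hearts. All aged hearts were above all young hearts, and young animal 15 was 7.56-fold above the mean of the other young hearts. The difference was 4.13 on the log2 scale (SE 0.950, n = 3 per group), or 17.5-fold, with adjusted p = 0.0916 by edgeR. Only 35 of the 13784 genes tested had a larger log2 rise. Leaving out young animal 15 gave 5.84 (SE 0.419), with an adjusted p of 0.00107 by edgeR.

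Enzyme and inhibitor can be compared in the same heart, where library scaling cancels. The ratio of Angptl4 to Lpl in reads per length was 0.00392, 0.00227 and 0.10 in young animals 3, 13 and 15. In aged animals 3, 4 and 7 it was 1.42, 2.01 and 2.77. Lpl reads therefore outnumbered those of its inhibitor per length in each young heart, and the order was turned in each aged heart. The mean log2 ratio differed by 7.69 between groups (exact permutation p = 0.1, the smallest possible here).

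The table has no row named Cd36. The row RGD1565355, on chromosome 4 (14001761 to 14249749), is described there as similar to the fatty acid translocase CD36 and carries NCBI gene number 29184. RefSeq gives that number to Cd36 but lists RGD1565355 as another name of the neighbouring gene Cd36l1, so the row cannot be assigned to either gene here. It held 207, 233 and 91.6 CPM in young animals 3, 13 and 15 and 86.4, 66.4 and 59.4 CPM in aged animals 3, 4 and 7. Aged hearts were all below young hearts, with a log2 difference of -1.32 (SE 0.381) and adjusted p = 0.0927 by edgeR. It was -1.60 (SE 0.206) with an adjusted p of 0.00284 by edgeR without young animal 15. Rows LOC103690020 and AABR07059308.1 lie within it on the same strand, and with their reads added the log2 difference was -0.98 (SE 0.357) with adjusted p = 0.119 by edgeR.

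Fabp3 encodes the heart-type fatty acid binding protein, the main one of cardiomyocytes, on chromosome 5 (148528725 to 148535565, plus strand). Its reads numbered 44798, 45311 and 3204 in young animals 3, 13 and 15, and 250, 2222 and 2398 in aged animals 3, 4 and 7. The matching CPM were 2710.2, 2881 and 132 in young hearts, and 8.21, 84.2 and 91.9 in aged hearts. Young animals 3 and 13 stood 21.1-fold above young animal 15, which in turn was 2.15-fold above the mean of the aged hearts. The groups did not overlap, with a log2 difference of -4.96 (SE 1.43, n = 3 per group), adjusted p = 0.0927 by edgeR. This was a 31.0-fold lower level, and 45 of all genes fell further. Without young animal 15 the difference was -5.47 (SE 1.01), with an adjusted p of 0.00796 by edgeR. Zcchc17, on the opposite strand, overlaps the 3′ end of Fabp3 and had 5486 reads over the 6 hearts, and reads in the overlap could belong to either gene, which matters most for the 250 reads of aged animal 3.

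Fabp4, the adipocyte form that capillary endothelium and macrophages also make, lies on chromosome 2 (93792601 to 93797305). Young animals 3, 13 and 15 had 593, 655 and 256 CPM, and aged animals 3, 4 and 7 had 320, 267 and 123 CPM. Young animal 15 fell within the aged range. The log2 difference of -1.08 (SE 0.50) was not past the limits, with adjusted p = 0.173 by edgeR. It was -1.36 (SE 0.405) with an adjusted p of 0.0364 by edgeR once young animal 15 was left out.

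Fabp5, the epidermal form found in many cells, lies near Fabp4 on chromosome 2 (93981656 to 93985378) and was higher in aged hearts. Its CPM was 66.7, 62.1 and 134 in young animals 3, 13 and 15, against 216, 239 and 156 in aged animals 3, 4 and 7. No aged heart was below a young one, although aged animal 7 and young animal 15 were close. The difference on the log2 scale was 1.22 (SE 0.365), or 2.33-fold, with adjusted p = 0.0949 by edgeR. With young animal 15 left out it was 1.70 (SE 0.232) and the adjusted p was 0.00341 by edgeR. Without young animal 3 it was 1.05 (SE 0.427) and was not past the limits, with an unadjusted p of 0.0516 in edgeR.

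Levels of different genes can be set beside each other in FPKM (fragments per kilobase of gene length and per 1000000 reads). In young animals 3 and 13 Fabp3 led the 9 genes with 2736 and 2767 FPKM, 64.2% and 64.4% of their summed FPKM. In young animal 15 it fell behind Fabp4, Plin2, Lpl and Fabp5 with 188 FPKM, and Fabp4 led with 417. Every aged heart was led by Plin2, with 617, 526 and 606 FPKM, and Fabp3 made up 0.701%, 7.12% and 8.99% of the sum. The ratio of Fabp5 to Fabp3 in reads per length was 0.0260, 0.0228 and 1.07 in young animals 3, 13 and 15, and 27.7, 2.99 and 1.79 in aged animals 3, 4 and 7. The ratio of Fabp5 to Fabp4 was 0.0874 to 0.482 in young hearts and 0.621 to 1.17 in aged ones, also without overlap. That of Fabp4 to Fabp3 overlapped, at 2.21 in young animal 15 and 1.53 in aged animal 7.

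Plin2 coats lipid droplets in nearly all cell types and lies on chromosome 5 (104984414 to 105010857, minus strand). Its reads numbered 2144, 1916 and 9615 in young animals 3, 13 and 15, and 28183, 22817 and 25386 in aged animals 3, 4 and 7. In CPM the young hearts had 130, 122 and 397, and the aged hearts 926, 865 and 973. Aged hearts were all above the young ones and varied little among themselves (mean 921 ± 54.0 CPM, SD, n = 3). The log2 difference was 2.09 (SE 0.530, n = 3 per group), or 4.26-fold, with adjusted p = 0.0916 by edgeR. Leaving out young animal 15 raised it to 2.91 (SE 0.230), with an adjusted p of 0.00117 by edgeR.

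Plin5 is the perilipin of oxidative tissue, where it is known to tether droplets to mitochondria. On chromosome 9 (10956056 to 10961782, plus strand), it had 69.8, 82.0 and 3.72 CPM in young animals 3, 13 and 15, and 0.493, 6.29 and 5.36 CPM in aged animals 3, 4 and 7. Young animal 15, with 90 reads, was below 2 of the 3 aged hearts, so the groups overlapped. The log2 difference was -3.68 (SE 1.305), past the limits with adjusted p = 0.115 by edgeR. Removing any of young animals 3 and 13 or aged animals 3, 4 and 7 gave p between 0.0530 and 0.0676 in edgeR's unadjusted test, and the gene was then not past the limits. In the fit without young animal 15 the difference was -4.20 (SE 0.875), with an adjusted p of 0.0119 by edgeR.

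The droplet coats were also compared within each heart. Reads per length of Plin2 were 1.93, 1.55 and 111 times those of Plin5 in young animals 3, 13 and 15. The same ratio was 1957, 143 and 189 in aged animals 3, 4 and 7. Young animal 15 lay just below the lowest aged heart (mean log2 difference 5.76, exact permutation p = 0.1, the smallest possible).

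**Figure D2:**
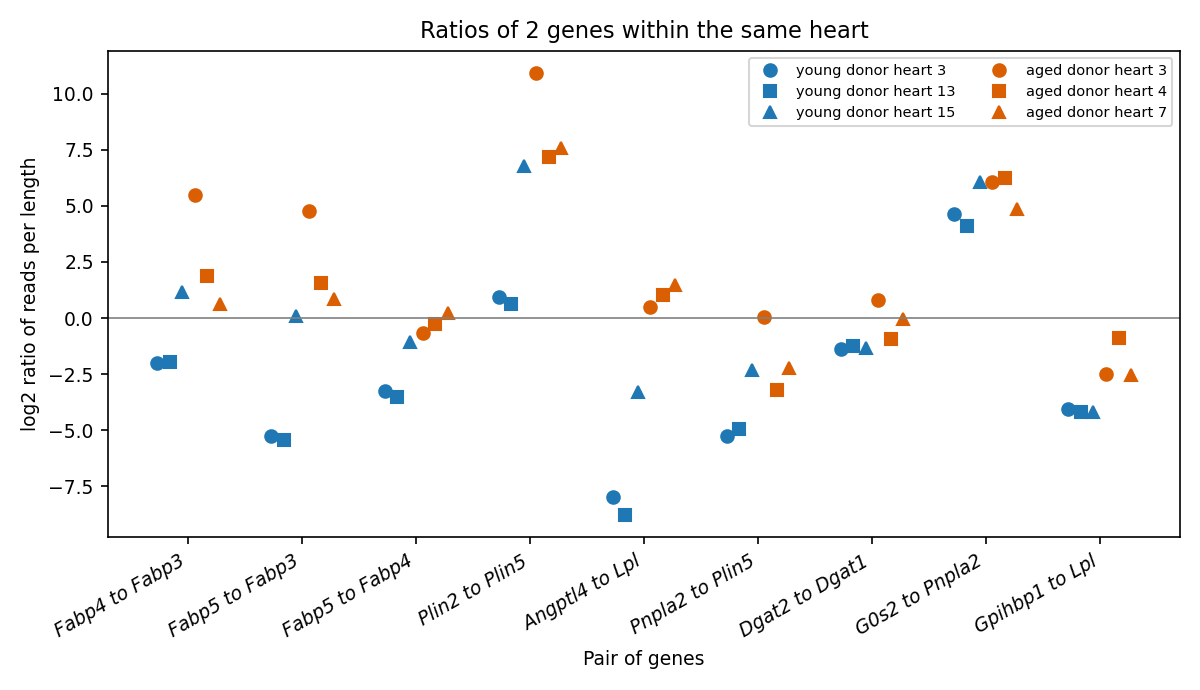
Log2 ratio of reads per length of 2 genes in the same heart, for 9 pairs, in 3 young (blue) and 3 aged (orange) hearts. The groups do not overlap in 6 of the 9 pairs, and the Angptl4 to Lpl ratio is below 0 in every young heart and above 0 in every aged heart.

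Pnpla2, the lipase of the opening step of droplet triglyceride breakdown, had few reads. Chromosome 1 (214434626 to 214439720) gave 35, 48 and 21 reads in young animals 3, 13 and 15, and 18, 21 and 35 in aged animals 3, 4 and 7. The groups overlapped, and the log2 difference of -1.13 (SE 0.576) was not past the limits (adjusted p = 0.202 by edgeR). A near-identical row, LOC100911615, holds another 12, 12 and 7 reads in young and 14, 40 and 19 in aged hearts, so reads may be split between them or discarded. With both rows summed the difference was -0.52 (SE 0.541) with adjusted p = 0.506 by edgeR. By limma-voom with quality weights on all 6 hearts the single row was at -1.26 with an adjusted p of 0.0365. Once young animal 15 was left out the single row gave -1.46 (SE 0.473) and an adjusted p of 0.0468 by edgeR.

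Dgat2, which joins the last fatty acid to triglyceride, was the gene in which young animal 15 did not lean toward the aged hearts. On chromosome 1 (164113459 to 164143818, minus strand), it had 36.4, 42.9 and 26.5 CPM in young animals 3, 13 and 15, and 151, 56.2 and 96.4 CPM in aged animals 3, 4 and 7. All aged hearts were above all young hearts, and the aged hearts spread more widely than the young. The difference was 1.52 on the log2 scale (SE 0.392), or 2.87-fold, with adjusted p = 0.0916 by edgeR. It was 1.39 (SE 0.426) with an adjusted p of 0.0399 by edgeR without young animal 15. Dgat1, the other enzyme of that step, was at 36.9 to 56.8 CPM in young and 48.3 to 59.1 CPM in aged hearts. The ratio of Dgat2 to Dgat1 was 0.386, 0.418 and 0.398 in young hearts, a narrow range that includes young animal 15, and 1.73, 0.527 and 0.985 in aged hearts (exact permutation p = 0.1, the smallest possible).

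Of the 9 pairs compared within hearts, 6 did not overlap between groups, where 41.6% of single genes did not. The genes were chosen with earlier results of these data known, and no share over other pairs was computed. Adjusted over the pairs, the exact permutation p of the 6 non-overlapping pairs was 0.15. The sixth was Gpihbp1 to Lpl, the endothelial anchor against the enzyme it holds, at 0.0549 to 0.0608 in young and 0.171 to 0.539 in aged hearts. The ratio of Pnpla2 to Plin5 overlapped between groups. So did that of G0s2, the inhibitor of Pnpla2, to Pnpla2, at 17.2 to 66.8 in young and 29.2 to 76.5 in aged hearts. Both ratios use the single Pnpla2 row, with 18 to 48 reads per heart, and leave out its near-identical row LOC100911615. Their size is therefore uncertain.

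Cardiomyocyte markers moved with several of these results. Of the 12 markers 5 were past the limits and lower, against 19.0% of all genes, and 7 were not past them. Without young animal 15, 7 of the 12 were past the limits and lower, against 24.2% of all genes. The mean log2 CPM of the 12 markers was 12.3, 12.4 and 9.66 in young animals 3, 13 and 15, and 3.76, 8.90 and 8.54 in aged animals 3, 4 and 7. Fabp3 less this mean was -0.88, -0.92 and -2.61 in young hearts and -0.70, -2.499 and -2.02 in aged hearts. Those values overlapped, with a mean difference of -0.27 (exact permutation p = 1.0). Plin5 less the same mean overlapped as well, at -7.73 to -6.06 in young and -6.22 to -4.54 in aged hearts. So did Lpl, at -0.74 to -0.09 in young and -0.81 to 4.49 in aged hearts. For Plin2 the values were -5.49 to -1.02 in young and 0.86 to 6.10 in aged hearts, and for Angptl4 they were -10.45 to -4.36 and -0.76 to 4.04, without overlap. Fabp5, Dgat2, Fabp4, Pnpla2 and RGD1565355 also had every aged heart above every young one. Of these, Fabp4, Pnpla2 and RGD1565355 had negative log2 differences before the mean was taken off. The mean itself was lower in every aged heart, so a gene that fell less than the markers comes out higher on this measure.

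With the cardiomyocyte mean as a covariate in edgeR, 1 of the 9 genes stayed past the limits and higher, against 2.28% of all genes, and 0 were past them and lower, against 2.73%. The gene was Angptl4, with a log2 difference of 3.51 (SE 1.15, adjusted p = 0.862 by edgeR). In the same fit Lpl was at -2.60 (SE 1.08), Plin2 at 1.52 (SE 0.640) and Fabp3 at -1.19 (SE 1.19). Plin5 turned to 0.33 (SE 1.01) and Pnpla2 to 0.046 (SE 0.769), both with a standard error above the value. The score separates the groups completely, so marker level and donor age cannot be told apart in these 6 hearts.

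Scaling mattered for the signs. Libraries scaled to the cardiomyocyte markers moved the median of all genes to 4.41 on the log2 scale, and Lpl, Fabp4, Plin5, Pnpla2 and RGD1565355 then had positive differences. In that fit 4 of the 9 genes were past the limits and higher, against 67.6% of all genes, and 0 were past them and lower, against 0.0145%. Relative to that median Lpl was at -2.10, Fabp3 at -5.22, Plin5 at -4.00 and Fabp4 at -0.13, while Angptl4 was at 2.88, Dgat2 at 2.28, Plin2 at 1.45 and Fabp5 at 0.84. Scaling by library totals alone moved the median to 0.455, and 68.6% of all calls were then higher in aged hearts, against 40.9% with TMM. Relative to 0.455 the 9 genes kept their signs, from -4.81 for Fabp3 to 3.88 for Angptl4.

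**Figure D3:**
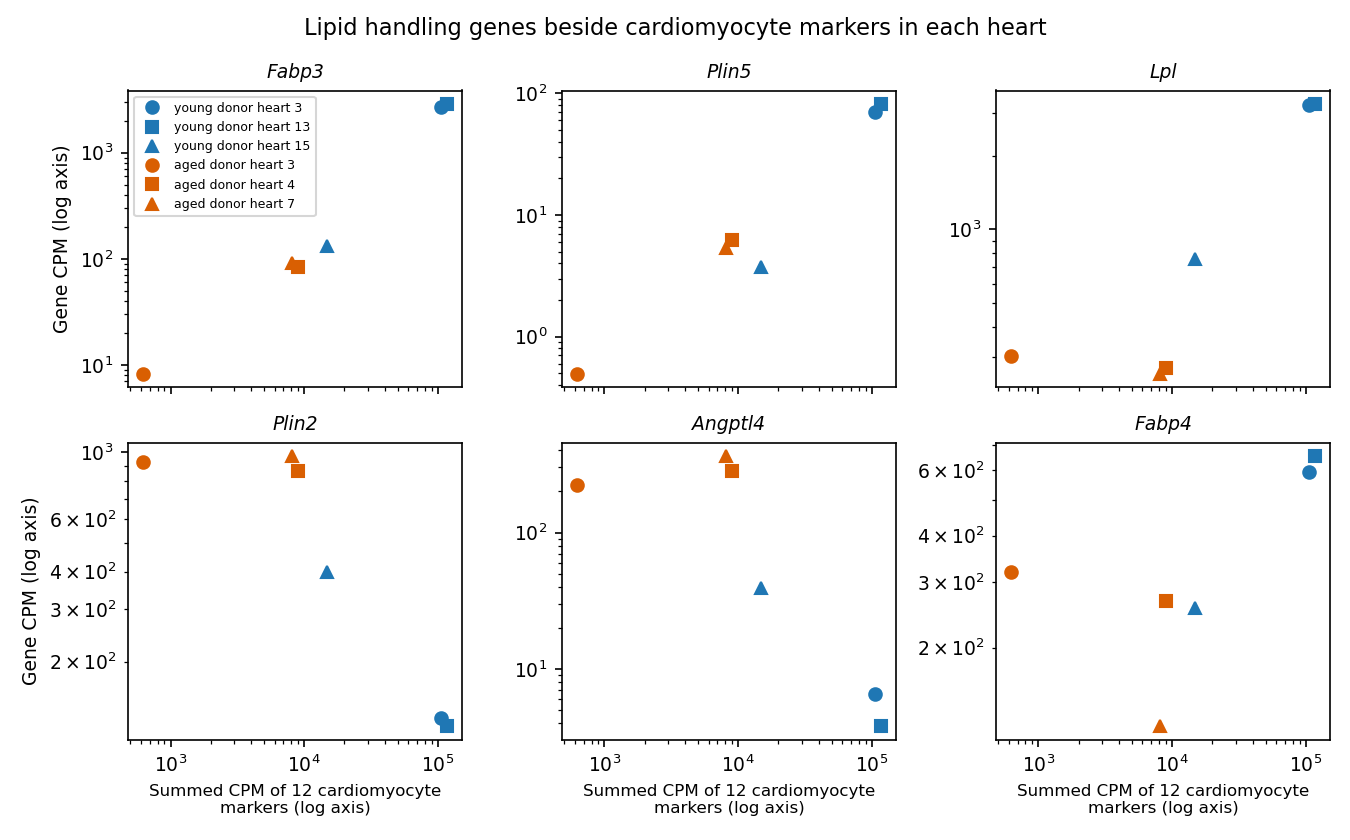
CPM of 6 genes against the summed CPM of 12 cardiomyocyte markers in each heart, both on log axes, with 3 young (blue) and 3 aged (orange) hearts. Fabp3 ranks aged animal 3 lowest and young animals 3 and 13 highest, as the markers do, while Plin2 is at 865 to 973 CPM in aged hearts whose marker sums run from 627 to 8957 CPM.

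Endothelial markers, which stand for the cells that bear lipoprotein lipase on their surface, overlapped between groups. Their summed CPM over 9 markers was 1265 to 1870.3 in young and 1093 to 1674 in aged hearts, and their most abundant members Cdh5, Tie1 and Vwf were not past the limits. Of the 9, Emcn was past the limits and lower (log2 -1.34, SE 0.303) and Esam past them and higher (log2 0.79, SE 0.283), each without overlap, and 7 were not past them. Less the endothelial mean log2 CPM, Lpl was at 5.12, 5.03 and 3.53 in young hearts and at 1.77, 1.80 and 2.02 in aged hearts. With that mean as a covariate, Lpl was at -2.46 (SE 0.516) and Angptl4 at 4.22 (SE 0.478), both past the limits. Fabp3 at -3.79 (SE 2.14) and Plin5 at -2.29 (SE 1.94) were not, and Fabp4 at -0.67 (SE 0.236) was.

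Fat cells are rich in Fabp4, Plin2 and Dgat2. Of 9 adipocyte markers, Adipoq and Adrb3 had no read in any heart, which allows up to 0.0985 to 0.191 CPM per heart by a limit of 3 counts. Plin1, the perilipin of fat cells, had 9 reads in aged animal 3 and none elsewhere. Cfd alone had enough reads to be tested, at 6.80 to 7.64 CPM in young and 21.5 to 22.9 CPM in aged hearts. Retn had 137 reads in aged animal 4 and at most 7 in any other heart, and Cidec had at most 12. Lep, Lgals12 and Adig had at most 7 reads in any heart. The summed CPM of the 9 markers was 6.99 to 8.17 in young and 22.2 to 27.2 in aged hearts. Most of that sum was Cfd in every heart, so it stands largely for 1 gene. Cfd was past the limits and higher (log2 1.58, SE 0.183, adjusted p = 0.0916 by edgeR).

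Beside the higher Plin2, Angptl4, Fabp5 and Dgat2, 7 of 9 neutrophil markers tested, 6 of 10 macrophage markers and 1 of 5 T cell markers were past the limits and higher in aged hearts, and 0 of these were past them and lower. The shares of all genes were 13.2% higher and 19.0% lower. With all 6 hearts Lyz2, Csf1r, Cd8a and Cd4 were not past the limits. Without young animal 15, 9 of 9 neutrophil, 10 of 10 macrophage and 2 of 5 T cell markers were past the limits and higher, against 26.9% of all genes. Summed CPM of 10 neutrophil markers, led by Csf3r, S100a9 and S100a8, was 17.0 and 17.1 in young animals 3 and 13, 145 in young animal 15 and 356 to 1357 in aged hearts. That of 10 macrophage markers, led by Lyz2, Mrc1 and Csf1r, was 403, 374 and 2314 in young animals 3, 13 and 15 and 3665 to 6998 in aged hearts. Young animal 15 was again between the others, and no marker of either list was at 0 in every heart. T cell markers summed to 26.1 to 77.3 CPM in young and 91.8 to 139 CPM in aged hearts, led by Cd8a, Cd4 and Cd2. Of the T cell markers Cd2 alone was past the limits with all 6 hearts. The defining marker Cd3e (log2 0.53, SE 0.709) and its partner Cd3g (log2 -0.37, SE 0.448) overlapped and were not past them, and Cd3d and Cd5 had too few reads to test. The part of leukocytes in the levels of the 4 genes was not tested. Fibroblast markers, led by Col3a1, Col1a1 and Dcn, summed to 6367 to 8181 CPM in young and 2342 to 4488 CPM in aged hearts, but their mean log2 CPM overlapped. Col3a1 (log2 -1.32, SE 0.437) and Col1a1 (log2 -1.61, SE 0.616) were past the limits and lower without overlap, and the other 5 were not past them. Mural cell markers, led by Pdgfrb, Notch3 and Acta2, overlapped in sum at 754 to 1104 and 706 to 949 CPM. Rgs5 was past the limits and lower without overlap (log2 -2.34, SE 0.453). The other 6 mural markers were not past them, although Notch3 was higher in every aged heart than in any young one.

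**Figure D4:**
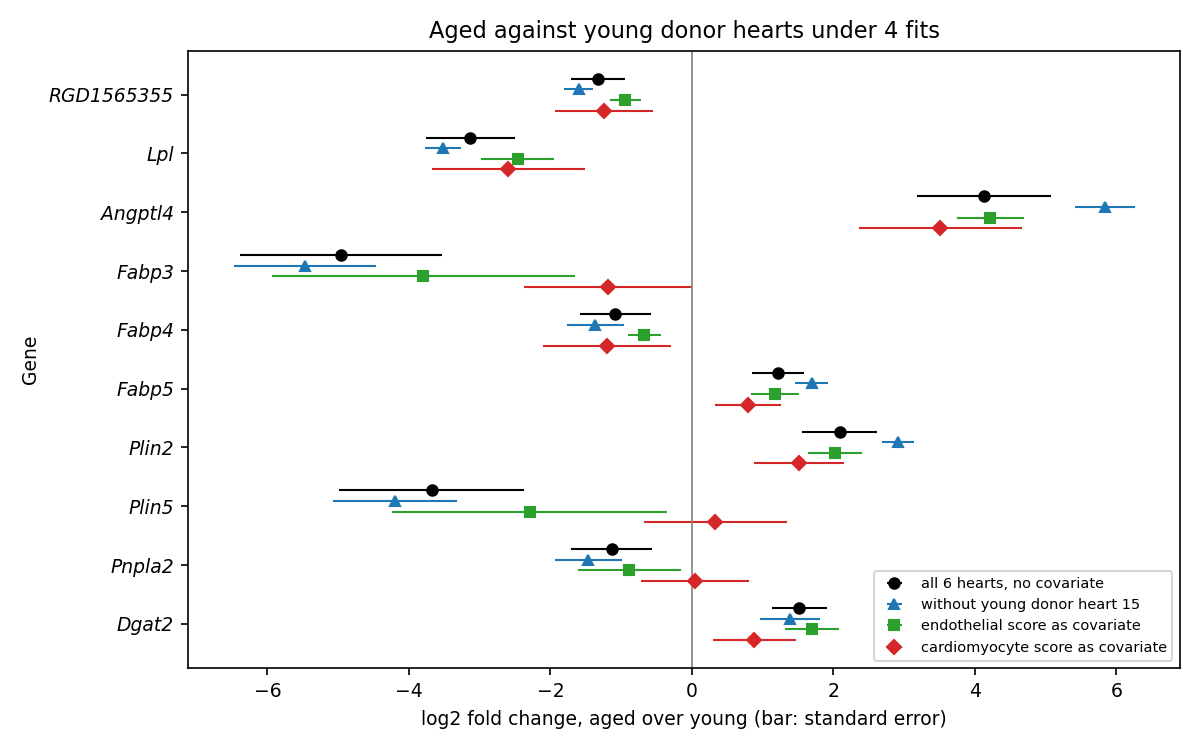
Log2 fold change of aged over young hearts with its standard error (bar) for the 9 genes and RGD1565355 under 4 edgeR fits: all 6 hearts, without young animal 15, and with an endothelial or a cardiomyocyte marker score as covariate. Angptl4 lies between 3.51 and 5.84 in all 4 fits, while Fabp3 moves from -4.96 to -1.19 and Plin5 from -3.68 to 0.33 with the cardiomyocyte score.

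Around Lpl, 10 of 12 other genes of lipoprotein lipolysis and lipoprotein receptors were tested, with 1 higher and 2 lower past the limits (median log2 difference 0.80, against 0.016 for all genes). Over all genes 13.2% were higher and 19.0% lower. Lrp1, a large receptor that clears lipoprotein remnants, was higher, at 305 to 951 CPM in young and 1258 to 1973 CPM in aged hearts (log2 1.52, SE 0.558). Vldlr, the receptor that holds very-low-density lipoprotein in muscle and heart, was lower (log2 -1.68, SE 0.420), and so was Lmf1, which matures the lipase (log2 -0.72, SE 0.272). Apoc2 had 1 read in all and was not tested. Leaving young animal 15 aside, 7 were higher and 2 lower, against 26.9% and 24.2% of all genes. Vldlr was past the limits whichever heart was left out, whereas Lrp1 lost its call when any 1 of the other 5 hearts was left out, and Lmf1 did when young animal 3, young animal 13, aged animal 3 or aged animal 7 was.

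Fatty acid transport and activation went both ways, with 2 of 13 tested genes higher and 4 lower (median -0.43). The shares of all genes were 13.2% and 19.0%. Acsl1, the main acyl-CoA synthetase of the heart, had 1587, 1808 and 198 CPM in young animals 3, 13 and 15 and 47.5, 129 and 88.1 CPM in aged animals 3, 4 and 7 (log2 -3.76, SE 0.892). Acsl6, another synthetase, was lower by more but with overlap (log2 -5.27, SE 1.68), down to 1 read in aged animal 3. Got2 (log2 -1.75, SE 0.564) and Cav1 (log2 -1.04, SE 0.422) were lower. Acsl4, which favours polyunsaturated fatty acids, was higher, at 14.1 to 54.5 CPM in young and 61.7 to 110 CPM in aged hearts (log2 1.56, SE 0.565), as was the transporter Slc27a4 (log2 1.43, SE 0.556). Slc27a2 had too few reads. The list held 5 higher and 6 lower genes of 14 tested without young animal 15, against 26.9% and 24.2% of all genes. Acsl1 was past the limits in all 6 fits that left out a heart and Acsl6 in 5 of them, but Got2 in 3, Acsl4 and Cav1 in 2 each, and Slc27a4 in 1.

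Besides Fabp3, Fabp4 and Fabp5 the binding proteins were barely read. Fabp1, the liver form, had 20, 32 and 85 reads in young and 0, 17 and 8 in aged hearts (log2 -2.84, SE 1.06). Young animal 15 held the most of these reads, and Fabp1 was not past the limits without it, without young animal 13 or without aged animal 7. The genes Fabp2, Fabp6, Fabp7, Fabp9, Fabp12 and Pmp2 had too few to test.

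Among 14 other droplet proteins tested, 1 was higher and 3 lower (median 0.28), against 13.2% and 19.0% of all genes. Hilpda, a droplet protein induced by hypoxia that inhibits Pnpla2, had 3.45, 3.18 and 7.43 CPM in young animals 3, 13 and 15 and 20.1, 19.98 and 21.5 CPM in aged animals 3, 4 and 7. No aged heart came near a young one (log2 2.12, SE 0.376, adjusted p = 0.0916 by edgeR). Fitm1, the muscle form of the proteins that partition fat into droplets, was at 6.57 to 47.4 CPM in young and 0.361 to 4.13 CPM in aged hearts (log2 -3.82, SE 1.06). Fitm2 (log2 -2.29, SE 0.823) and Cidea, which fuses droplets (log2 -2.29, SE 0.918), were also lower. Plin1 and Cidec missed the filter on low counts. Plin3 and Plin4 were not past the limits. When young animal 15 was dropped, 6 of these genes were higher and 3 lower, against 26.9% and 24.2% of all genes. Hilpda and Fitm1 were past the limits in all 6 fits without 1 heart, Fitm2 in 3 of the 6 and Cidea in 2.

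Of 9 other lipases and cofactors, 2 were lower, against 19.0% of all genes, and the other 7 not past the limits (median -0.13). Pnpla3 had 5.82 to 25.7 CPM in young and 0.854 to 3.26 CPM in aged hearts (log2 -2.83, SE 0.706), and Ces1d, a carboxylesterase, was lower by -1.58 (SE 0.404). Lipe, the hormone-sensitive lipase, was at 114 to 133 CPM in young and 83.2 to 182 CPM in aged hearts (log2 -0.04, SE 0.345). In the fit without young animal 15, 0 were higher and 3 lower, against 26.9% and 24.2% of all genes. Pnpla3 and Ces1d were past the limits whichever heart was left out.

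Glyceride synthesis beside Dgat2 had genes in both directions within its steps. Of 14 tested genes 3 were higher and 4 lower (median 0.12), against 13.2% and 19.0% of all genes. In the glycerol-phosphate acyltransferase step Gpat3 was higher (log2 0.75, SE 0.198) and Gpam lower (log2 -1.92, SE 0.469). In the next acyltransferase step Agpat4 was higher (log2 0.89, SE 0.323) and Agpat3 lower (log2 -2.505, SE 0.529). In the phosphatase step Lpin2 was higher, at 23.9 to 35.2 CPM in young and 48.9 to 68.3 CPM in aged hearts (log2 1.06, SE 0.223). Lpin1, the muscle form, was lower, at 59.4 to 212 against 8.70 to 29.0 CPM (log2 -2.94, SE 0.626), as was Mogat2 (log2 -2.03, SE 0.630). Mogat1 and Soat2 had too few reads. When young animal 15 was dropped, 5 were higher and 5 lower, against 26.9% and 24.2% of all genes. Of the 7 genes past the limits, Mogat2 was lost in 3 and Agpat4 in 4 of the 6 fits without 1 heart, and the other 5 in none.

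Upstream of several of these genes, the PPAR receptors, their partners and their fatty acid oxidation targets had 24 tested genes, with 1 higher and 16 lower. The shares of all genes were 13.2% and 19.0%. The list median was -2.05 and that of all genes 0.016 on the log2 scale. Ppargc1a, the coactivator of oxidative genes, had 72.1, 103 and 15.6 CPM in young animals 3, 13 and 15 and 0.164, 4.32 and 1.95 CPM in aged animals 3, 4 and 7 (log2 -4.89, SE 1.20). Rxrg (log2 -3.91, SE 1.09), Ppargc1b (log2 -3.09, SE 0.687) and Ppara (log2 -2.85, SE 0.793) were lower without overlap. Cpt1b, the mitochondrial gate for fatty acids in muscle, was lower at 180 to 992 CPM in young against 8.08 to 147 CPM in aged hearts (log2 -2.79, SE 1.12), and Cpt2 was at -2.66 (SE 0.646). Pparg alone was higher, at 6.99 to 10.1 against 11.0 to 14.1 CPM (log2 0.59, SE 0.236), a fold change just over the limit. Many of these genes are abundant in cardiomyocytes, whose markers moved the same way. With the cardiomyocyte score as covariate 3 of the 24 were past the limits and higher and 1 lower, against 2.28% and 2.73% of all genes. Without young animal 15, 1 was higher and 17 lower, against 26.9% and 24.2%. Of the 16 lower genes 10 were past the limits whichever heart was left out, Cpt1b in 2 of the 6 fits, and Pparg only in the fit without young animal 15.

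The KEGG PPAR signaling pathway was taken only as the table assigns genes to it, and so held 80 genes. Of these, 50 were tested, 7 were higher and 19 lower (median -0.58), against 13.2% and 19.0% of all genes. Without young animal 15, 12 were higher and 23 lower of 51 tested, against 26.9% and 24.2% of all genes. Leaving out any other heart gave 4 higher and 13 to 18 lower. That assignment includes 6 of the 9 genes: Angptl4, Fabp3, Fabp4, Fabp5, Plin2 and Plin5. These 6 did not share a direction, since Angptl4, Fabp5 and Plin2 were higher, Fabp3 and Plin5 lower, and Fabp4 not past the limits. The row of Lpl carries no NCBI gene number, so its absence from the assignment does not show that KEGG leaves it out. Row RGD1565355 was assigned to the pathway and was among the lower genes.

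**Figure D5:**
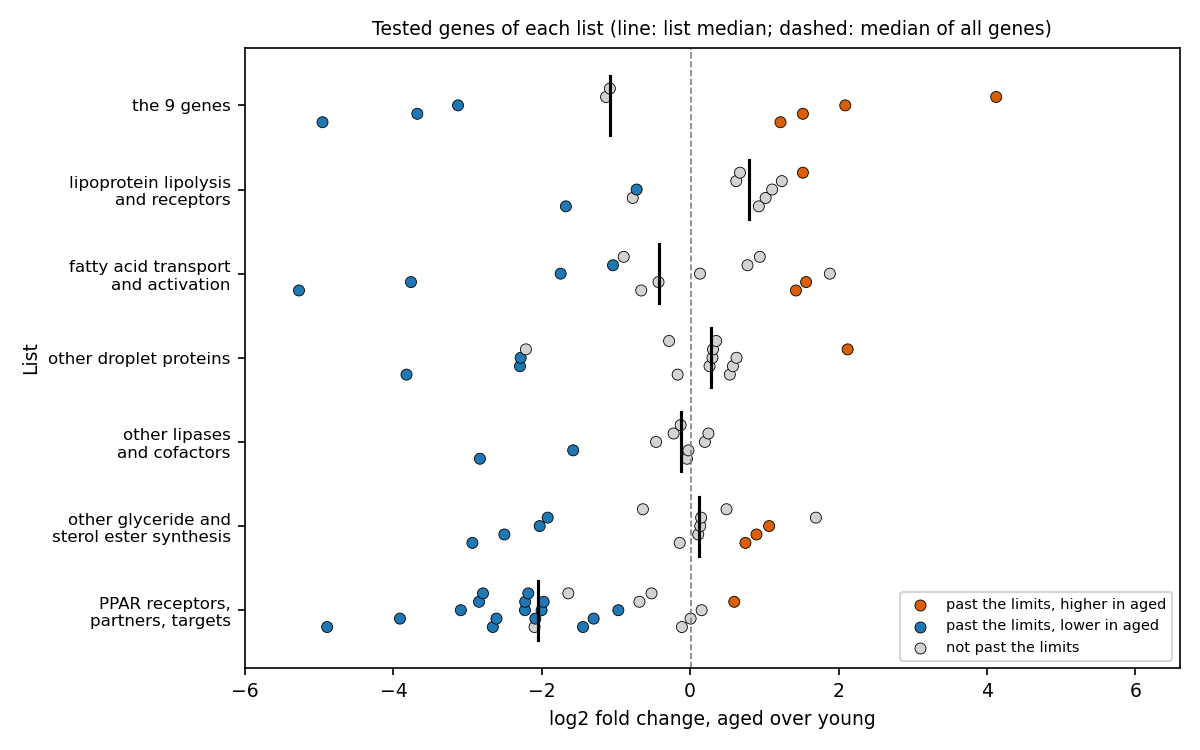
Log2 fold change of aged over young hearts for the tested genes of 7 lists, coloured by whether they were past the limits, with list medians (black) and the median of all genes (dashed). The 9 genes reach from -4.96 to 4.13, and the PPAR list has 16 genes lower and 1 higher.

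Genes with the most similar pattern over the 6 hearts were sought among 9562 genes with a mean of at least 10 CPM, by the root mean square (RMS) difference of centred log2 CPM. Nearest to Fabp3 were Adssl1 (RMS 0.296) and Tmem116 (0.326), and nearest to Plin5 were Gnb3 (0.294) and Doc2g (0.297). Lpl lay nearest to Adamtsl4 (0.0706) and Pik3ip1 (0.122). For Plin2 they were Map3k6 (0.116) and Junb (0.130), an immediate early transcription factor. Angptl4 was matched least closely, with Fcnb (0.416) and Adamts4 (0.522) nearest. Dgat2 lay nearest to Adm (0.146), the vasodilator peptide adrenomedullin, and Crispld2 (0.199). Fabp4 was followed by Hrct1 (0.126) and Slco2b1 (0.132), Fabp5 by Limk1 (0.0935), and Pnpla2 by Socs6 (0.158) and Afg3l2 (0.182). The measure rests on 6 hearts and is a description.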

How the data were processed

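RNA-Seq was performed by the authors on LV myocardium of 6 donor hearts on postoperative day 1. The authors deposited 1 table with the raw read count and the FPKM value of each gene in each heart, and its columns all belong to these hearts (0 others). The counts carry no normalization, and the deposited FPKM equals count over gene length and library total in all but 1 of 133500 values, within a relative tolerance of 0.0001. The submitters' processing notes name HISAT2 2.0.5, StringTie 1.3.3b, featureCounts 1.5.0-p3, DESeq2 1.16.1, GATK 3.7 and the build Rnor_6.0. Whether counting used strand is not given in the sources used here, so overlapping genes and near-identical copies are uncertain. Gene coordinates, names and KEGG pathways were used as the table gives them.

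The genes and all lists were chosen with earlier results of these data known. Samples were grouped by the donor age in the labels, 3 hearts per group, and nothing says whether libraries were prepared in batches. All genes kept by edgeR's filterByExpr (13784) were fitted together by edgeR 4.0.16 (TMM, quasi-likelihood test, R 4.3.3), aged against young, with no covariate, and p-values were adjusted by Benjamini-Hochberg over all of them. CPM are TMM-scaled, and log2 CPM of single hearts adds a prior count of 2. Exact permutation tests (scipy 1.17.1) were two-sided over 20 assignments of hearts. Standard errors of edgeR's log2 differences were derived from the difference and the F statistic of the quasi-likelihood test. The limit of 3 counts covers counting error only, and reads carried no molecular identifiers.

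Alternatives were DESeq2 1.42.0 size factors and Wald test, library totals, TMM without mitochondrial genes, no filter, at least 10 reads in every heart of 1 group, limma-voom with quality weights (limma 3.58.1), cardiomyocyte or endothelial scores as covariates, scaling by cardiomyocyte markers, fold limits of 2 and 0.5, an adjusted p under 0.1, 0.5 added to counts in ratios, and leaving out each heart. Summing rows of 1 locus was added after seeing the data. Scripts were tested on simulated data. Named were all members, the genes of each lipid list past the limits (up to 6 by size) or too low to test, the 3 most abundant markers per list and any at 0, the 2 genes nearest in pattern to each member, and overlapping genes or copies. Genes named beside these (Gpihbp1, G0s2, Dgat1, Plin3, Plin4, Lipe, Cfd, Retn, Plin1, Cidec, Emcn, Esam, Cd3e, Cd3g, Cd3d, Cd5) were partners in a ratio or were chosen after their values were seen. A planned ratio, Cd36 to Fabp3, was not computed. Some genes that this rule would name are not reported here.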

Additional observations from a re-analysis of the deposited data

How the results depend on the processing

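The count of members higher in aged hearts was 4 in the main analysis and 1 with the cardiomyocyte score as covariate. It stayed within 1.5 times in the other alternatives, and leaving out single hearts gave 3 to 4. Over all genes the higher count was 1815 in the main analysis and 314 with that covariate. It ran from 817 to 3802 when single hearts were left out. The count lower in aged hearts was 3 in the main analysis. It was 0 with the cardiomyocyte score as covariate or with scaling by cardiomyocyte markers, 5 by limma-voom with quality weights, and 2 to 5 when single hearts were left out. Over all 13784 genes the lower count was 2621 in the main analysis, 376 with the covariate, 2 with the marker scaling (9317 were higher) and 3815 by limma-voom. Leaving out single hearts gave 1615 to 3412 lower genes. Members with an adjusted p under 0.05 numbered 0 by edgeR with all hearts, 7 by the DESeq2 Wald test, 9 by limma-voom, and 0 to 9 when single hearts were left out, the 9 arising without young animal 15. Signs turned for 5 genes with scaling by cardiomyocyte markers, to log2 differences of 2.31 for Lpl, 4.28 for Fabp4, 0.41 for Plin5, 3.46 for Pnpla2 and 3.91 for RGD1565355, where the median of all genes also moved to 4.41. With the cardiomyocyte score as covariate Plin5 turned to 0.33 and Pnpla2 to 0.046. The cause of these changes was not tested. The 6 non-overlapping ratios numbered 6 to 9 when single hearts were left out. With 1 heart fewer the groups overlap less readily, and no share over other pairs was computed. No paired analysis was possible because the groups share a single replicate number, which names different animals. Pnpla2 rests on 18 to 48 reads per heart.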
